A study of Mus musculus with 8 samples.

Results

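Mitochondria are kept in working order by fusion, by fission, by proteases that clear damaged proteins, and by mitophagy, the removal of whole mitochondria. The 10 genes described here, of 17097 genes measured, were taken as a named list: Pink1, Yme1l1, Opa1, Mfn1, Mfn2, Dnm1l, Lonp1, Clpp, Afg3l2 and Phb2. The list was chosen with earlier results of these data known, so its counts are description only. All 10 were represented on the array, by 24 probe sets (sets of short probes against 1 transcript), and all 10 were kept, since no filter on level was applied. For each gene the brightest probe set that names it alone was used, and the others were described beside it.

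The samples were dermal fibroblasts from female mice given a high fat diet (HFD, 4 arrays) or a normal diet (ND, 4 arrays) for 6 months from 2 months of age. Strain and genotype are not given in the labels. Cells of collagenase-digested dermis that carried Pdgfra and CD34, and lacked CD45, CD117, CD24, CD31 and EpCam, were sorted, 10000 per sample. RNA from these cells was carried through 20 amplification cycles before hybridisation to mouse expression arrays. Quality control status in the labels marks ND 4 as excluded and gives no reason, so HFD 1 to 4 were compared with ND 1 to 3, and ND 4 is given apart. Each specimen was taken as 1 mouse, and where specimens were not separate animals the p-values would measure technical spread only. Values are log2 expression values, on which a difference of 1 is a doubling.

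Several of these proteins act on one another. PINK1 is a kinase that builds up on damaged mitochondria and starts their marking with ubiquitin for mitophagy. YME1L1 is a protease of the inner membrane that cuts OPA1, the GTPase that fuses inner membranes, while the mitofusins MFN1 and MFN2 fuse outer membranes and DRP1, encoded by Dnm1l, divides the organelle. In fibroblasts the balance of these activities sets whether mitochondria form a long network or short fragments.

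In HFD fibroblasts Pink1 was 1.94-fold higher and Yme1l1 1.99-fold lower than in ND fibroblasts, and the other 8 genes did not pass the threshold (limma fit across all genes, adjusted p under 0.05). Thus 1 of 10 genes rose and 1 fell, where 5.35% of all genes passed in either direction, 2.62% higher and 2.73% lower. None of the 10 lay below the median gene (6.77). In a fit of genes at or above that level 3 of the 10 passed, against 1387 of 8554 genes. The arrays of the 2 diets were fully separate in 5 of the 10 genes, against 17.9% of all genes, a share that includes genes below the median. The median difference of the 10 genes was 0.08, against 0.02 over all genes, with 5 positive and 5 negative. Both calls were lost in 7 of 19 other settings, among them the fit with ND 4 and the fits without HFD 3, HFD 4 or ND 3, though the direction of both genes was kept in all 19.

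**Figure D1:**
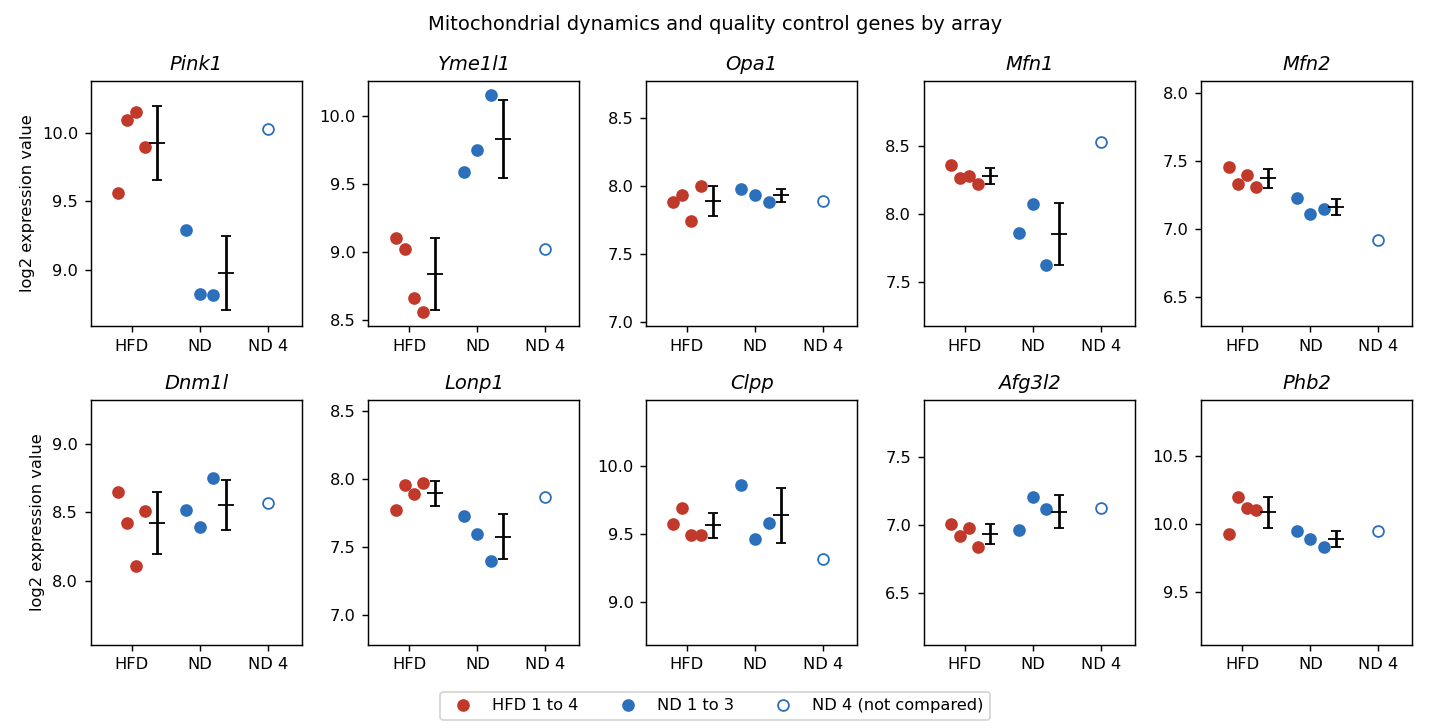
Log2 expression value of each of the 10 genes by array, with HFD 1 to 4 left of ND 1 to 3 and ND 4, which was not compared, as an open circle (black bars: mean and SD; every panel spans the same range of log2 values). HFD and ND arrays lie apart in Pink1, Yme1l1, Mfn1, Mfn2 and Lonp1, and ND 4 lies among the HFD arrays in Pink1, Yme1l1 and Lonp1.

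The promoters of the 2 genes that passed are shown because these genes moved in opposite directions. The windows hold the 250 bases before the listed transcription start, from RefSeq on GRCm38.p6, and capitals mark matches to the core of the NRF1 motif (TGCGCA) or to the motif of ETS factors (CCGGAAG), both known regulators of mitochondrial genes.
Pink1, chr4:138326297-138326546, minus strand: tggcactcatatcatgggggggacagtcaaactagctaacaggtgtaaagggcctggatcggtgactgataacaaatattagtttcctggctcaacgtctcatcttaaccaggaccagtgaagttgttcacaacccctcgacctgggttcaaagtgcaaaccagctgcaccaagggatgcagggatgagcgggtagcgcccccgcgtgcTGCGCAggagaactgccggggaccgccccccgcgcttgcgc
Yme1l1, chr2:23156255-23156504, plus strand: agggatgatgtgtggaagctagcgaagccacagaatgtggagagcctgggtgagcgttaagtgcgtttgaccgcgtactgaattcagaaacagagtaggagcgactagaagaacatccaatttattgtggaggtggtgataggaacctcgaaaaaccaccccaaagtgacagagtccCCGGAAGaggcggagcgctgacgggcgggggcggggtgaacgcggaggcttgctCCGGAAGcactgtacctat
Both strands were searched. The Pink1 window held 1 NRF1 match and no ETS match, and the Yme1l1 window held 2 ETS matches and no NRF1 match. Over 32851 such windows of all genes, 6.43% held the NRF1 core and 6.91% the ETS motif. The motifs were chosen after the windows had been seen, and the NRF1 core replaced a longer form searched first when it was already known to occur in the Pink1 window, so its match there is no independent observation. The matches describe the letters only.

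Pink1, the kinase that starts ubiquitin-dependent mitophagy, had 9.56, 10.1, 10.16 and 9.9 in HFD 1 to 4, against 9.29, 8.82 and 8.81 in ND 1 to 3. The lowest HFD array, HFD 1, lay above the highest ND array, ND 1. The means were 9.93 ± 0.27 (SD, n = 4) in HFD and 8.97 ± 0.27 (SD, n = 3) in ND. The difference was 0.96 (SE 0.16, 95% interval 0.60 to 1.32, limma adjusted p = 0.0224). The second Pink1 probe set gave the same picture, with 9.48, 10.1, 10 and 9.84 in HFD, against 9.08, 8.8 and 8.78 in ND, and a difference of 0.97 (limma adjusted p over all probe sets = 0.0228). Both probe sets therefore put HFD 2 and HFD 3 highest and HFD 1 lowest among the HFD arrays. ND 4 had 10.03 in both, inside the HFD range, and with it the difference was 0.69 (SE 0.24, limma adjusted p = 0.215).

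Yme1l1, the protease that faces the intermembrane space, had 9.1, 9.02, 8.66 and 8.56 in HFD 1 to 4, against 9.59, 9.75 and 10.15 in ND 1 to 3. Every HFD array lay below every ND array, with ND 3 the highest. The means were 8.84 ± 0.27 (SD, n = 4) in HFD and 9.83 ± 0.29 (SD, n = 3) in ND, a difference of −0.99 (SE 0.16, 95% interval −1.36 to −0.63, limma adjusted p = 0.0224). ND 4 had 9.02, again inside the HFD range, and with it the difference was −0.79 (SE 0.21, limma adjusted p = 0.16).

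The 3 probe sets of Yme1l1 did not move alike. The second had 8.83, 8.85, 8.69 and 8.68 in HFD, against 9.36, 9.24 and 9.64 in ND, and fell by 0.65 on the log2 scale (limma adjusted p over all probe sets = 0.0258). The third, the dimmest, had 7.5, 7.82, 7.32 and 7.57 in HFD, against 7.73, 7.67 and 7.52 in ND, and the diets overlapped. Its difference was −0.09 (95% interval −0.36 to 0.18). The mean of all 3 probe sets fell by 0.58 on the log2 scale (SE 0.10, limma adjusted p = 0.0375). Whether the probe sets differ from one another was not tested, and the platform annotation pairs all 3 with the same gene.

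Among the fusion genes, the outer membrane mitofusin Mfn1 came closest to the threshold without passing it. It had 8.36, 8.27, 8.28 and 8.22 in HFD, against 7.86, 8.08 and 7.63 in ND, so the diets did not overlap. The difference was 0.43 (SE 0.11, 95% interval 0.18 to 0.67, limma adjusted p = 0.0533). Its second probe set had 7.99, 7.93, 7.94 and 8.0 in HFD, against 7.46, 7.69 and 7.15 in ND, and a difference of 0.53 that passed over all probe sets (limma adjusted p = 0.0448), while the dimmest differed by 0.13. The HFD arrays lay close together and the ND arrays spread more widely, with SDs of 0.06 (n = 4) and 0.23 (n = 3). ND 4 had 8.53, above all 7 other arrays.

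Mfn2, which also tethers mitochondria to the endoplasmic reticulum, had 7.46, 7.33, 7.4 and 7.31 in HFD, against 7.23, 7.11 and 7.15 in ND. The diets did not overlap, but the difference of 0.21 (95% interval 0.03 to 0.39) missed the threshold (limma adjusted p = 0.157). ND 4 had 6.92, below all 7 other arrays and so on the opposite side from its Mfn1 value. The other Mfn2 probe set differed by 0.01.

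Opa1, the inner membrane GTPase that YME1L1 cuts, overlapped between diets in its brightest probe set, at 7.88, 7.93, 7.74 and 8.0 in HFD, against 7.98, 7.93 and 7.88 in ND. The difference was −0.04 (95% interval −0.24 to 0.16, limma adjusted p = 0.84). The next brightest Opa1 probe set differed by −0.05, with overlap between the diets. The dimmest had 7.43, 7.48, 7.31 and 7.72 in HFD, against 7.41, 6.9 and 6.9 in ND. There ND 1 lay among the HFD arrays, and the difference was 0.42 (95% interval 0.09 to 0.74, limma adjusted p over all probe sets = 0.133). The array reads transcripts, so it holds no value for the cutting of the protein.

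Dnm1l, the GTPase of fission, spread widely within each diet, at 8.65, 8.42, 8.11 and 8.51 in HFD, against 8.52, 8.39 and 8.75 in ND. Its difference was −0.13 (95% interval −0.43 to 0.17, limma adjusted p = 0.641). Its 3 other probe sets differed by 0.15, −0.09 and −0.08, all with overlap between the diets.

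Of the matrix proteases, Lonp1, which degrades oxidised proteins, had 7.77, 7.96, 7.89 and 7.97 in HFD, against 7.73, 7.6 and 7.4 in ND. The diets did not overlap, by a margin of HFD 1 over ND 1, and the difference was 0.32 (SE 0.10, 95% interval 0.10 to 0.55, limma adjusted p = 0.0925). Lonp1 had 1 probe set only. Clpp, the proteolytic subunit of the other matrix protease, had 9.57, 9.69, 9.49 and 9.49 in HFD, against 9.86, 9.46 and 9.58 in ND. The diets overlapped, with ND 1 above and ND 2 below all HFD arrays, and the difference was −0.07 (95% interval −0.31 to 0.17, limma adjusted p = 0.759). The other Clpp probe set differed by −0.02, also with overlap.

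At the inner membrane, Afg3l2, a subunit of the protease that faces the matrix, had 7.01, 6.92, 6.98 and 6.84 in HFD, against 6.97, 7.21 and 7.12 in ND. ND 1 lay among the HFD arrays, and the difference was −0.16 (95% interval −0.36 to 0.03, limma adjusted p = 0.315). Its other probe set differed by 0.05. Phb2, a prohibitin that forms rings in the inner membrane and also serves as a mitophagy receptor, had 9.93, 10.2, 10.12 and 10.1 in HFD, against 9.95, 9.89 and 9.83 in ND. HFD 1 alone lay below the highest ND array, and the difference was 0.20 (95% interval 0.01 to 0.39, limma adjusted p = 0.211). The other Phb2 probe set differed by 0.04.

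**Figure D2:**
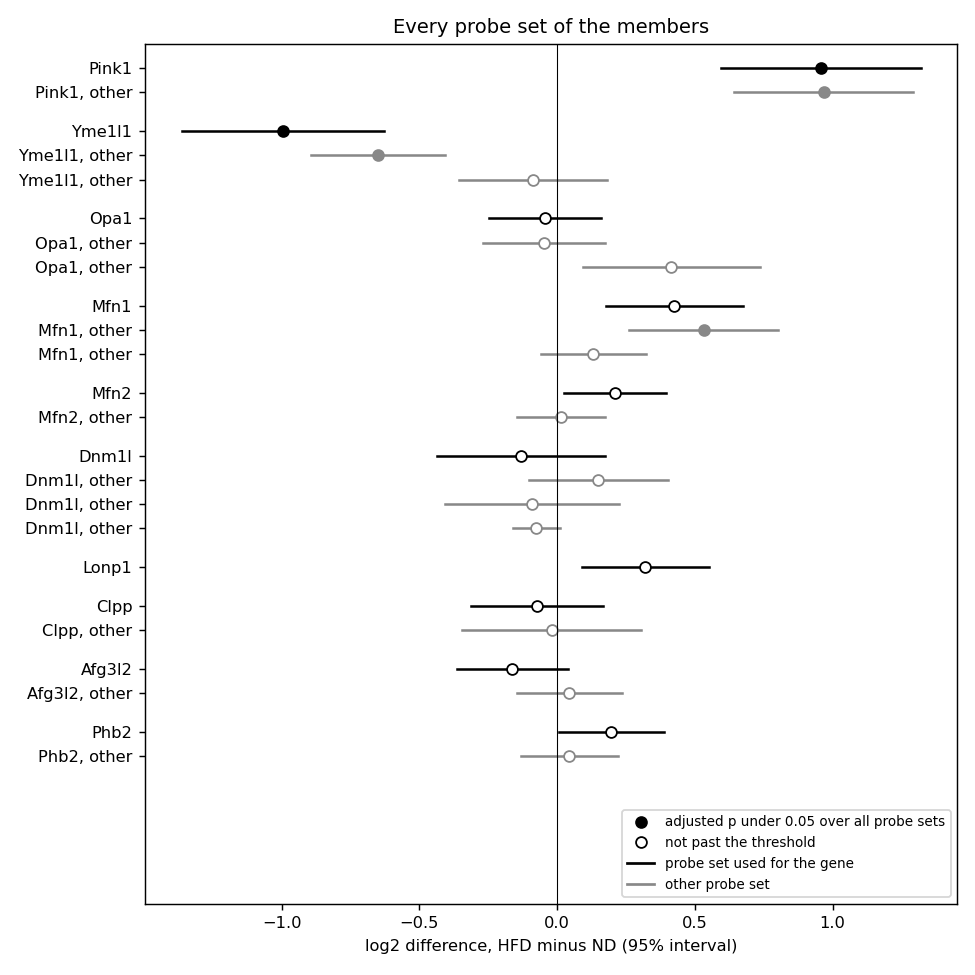
Log2 difference, HFD minus ND, of all 24 probe sets of the 10 genes with its 95% interval (black: probe set used for the gene; grey: other probe sets; filled: adjusted p under 0.05 over all probe sets). Both Pink1 probe sets, 2 of 3 for Yme1l1 and 1 of 3 for Mfn1 are filled.

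Fitted probe set by probe set, 5 of the 24 passed, 3 higher and 2 lower, where 3.54% of all probe sets passed. Probe sets of 1 gene share its transcripts and are not replicates. Within the diets the 10 genes spread slightly more than genes at large, with a median SD between arrays of 0.138, against 0.107 over all genes.

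Also 2 measures of the arrays were set beside Pink1 and Yme1l1. The first was a sign of RNA quality, the level of the 3′ control probe sets for Gapdh and Actb less that of the 5′ ones, at −0.4, −0.44, −0.375 and −0.44 in HFD 1 to 4, against −0.29, −0.335 and −0.18 in ND 1 to 3. The diets did not overlap in it, and ND 4, at −0.37, lay next to the HFD arrays. These means of Gapdh and Actb were all negative, so on average the 5′ signal was the stronger in every array, and more so in HFD. Gapdh alone was positive in ND 3, at 0.09. Of the 2 further transcripts with such control probe sets, Tfrc lay between −0.99 and −0.73 in HFD and between −0.59 and −0.57 in ND, without overlap, while Pcx overlapped, between −1 and −0.72 in HFD and between −0.99 and −0.65 in ND. With the Gapdh and Actb measure as a covariate Pink1 differed by 0.86 (SE 0.31, unadjusted p = 0.02) and Yme1l1 by −0.64 (SE 0.28, unadjusted p = 0.0456), both with a limma adjusted p = 0.999. Mfn1 then differed by 0.13 (SE 0.17). Since the measure does not overlap between the diets, this fit can hardly tell the 2 apart, and the SE of Pink1 was 0.16 without it. The part of RNA quality in these results was not tested further.

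The second measure was the level of keratinocyte markers. All 21 of the measured markers were higher in HFD on average, with a median difference of 0.34, and 12 lay below the median gene. None passed (limma, 0 genes, with 4 at an unadjusted p under 0.05). Their mean log2 value lay between 6.20 and 7.32 in HFD and between 6.16 and 6.51 in ND. HFD 1 lay within the ND range, and ND 4 had 6.79. With this mean as a covariate Pink1 differed by 0.69 (SE 0.14, limma adjusted p = 0.102) and Yme1l1 by −0.93 (SE 0.21, limma adjusted p = 0.105). HFD 1, with keratinocyte markers as low as the ND arrays, was also the HFD array nearest to ND in both genes, with the lowest Pink1 (9.56) and the highest Yme1l1 (9.1) of the HFD arrays. HFD 2, with the highest marker mean (7.32), had Pink1 at 10.1 and Yme1l1 at 9.02. HFD 3 and HFD 4, with marker means of 6.84 and 6.77, had Pink1 at 10.16 and 9.9 and Yme1l1 at 8.66 and 8.56. ND 1, ND 2 and ND 3 had marker means of 6.51, 6.16 and 6.30. Their Pink1 values were 9.29, 8.82 and 8.81, and their Yme1l1 values 9.59, 9.75 and 10.15. The part of these markers in the results was not tested further. The sorted pools are bulk samples, so a change in the share of cells and a change in RNA per cell cannot be told apart.

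**Figure D3:**
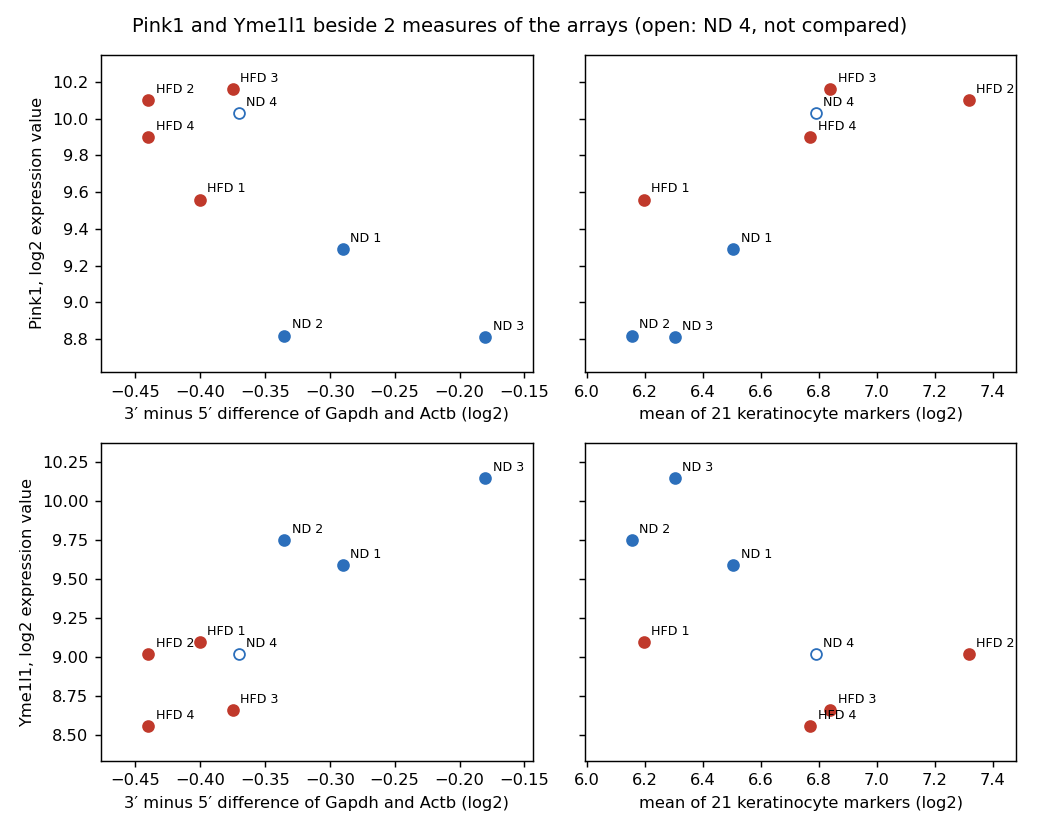
Log2 expression value of Pink1 (top) and Yme1l1 (bottom) by array, against the RNA quality measure, 3′ less 5′ signal for Gapdh and Actb (left) and the mean log2 value of 21 keratinocyte markers (right). HFD arrays are red, ND arrays blue, and ND 4 is open. ND 4 sits with the HFD arrays in Pink1 and Yme1l1, and its 3′ less 5′ value of −0.37 lies next to that of HFD 3.

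The mean level of fibroblast markers overlapped between the diets. Taken singly, 4 of 12 did not overlap, against 17.9% of all genes. The mean log2 value of 12 such markers lay between 11.19 and 11.28 in HFD and between 11.18 and 11.26 in ND, and 1 of them passed, lumican (Lum), which was lower in HFD. Of the genes of the sort, Cd34 averaged 12.10 in HFD and 12.08 in ND. The only Pdgfra probe set lay below the median gene of 6.77, at 6.27 in HFD and 5.92 in ND. The diets did not overlap in Pdgfra, and it differed by 0.34 (limma adjusted p = 0.103). Of 54 markers of blood, endothelial, mural, nerve and pigment, fat and skeletal muscle cells, 0 passed (limma, with 1 at an unadjusted p under 0.05), and the list medians lay between −0.05 and 0.10.

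**Figure D4:**
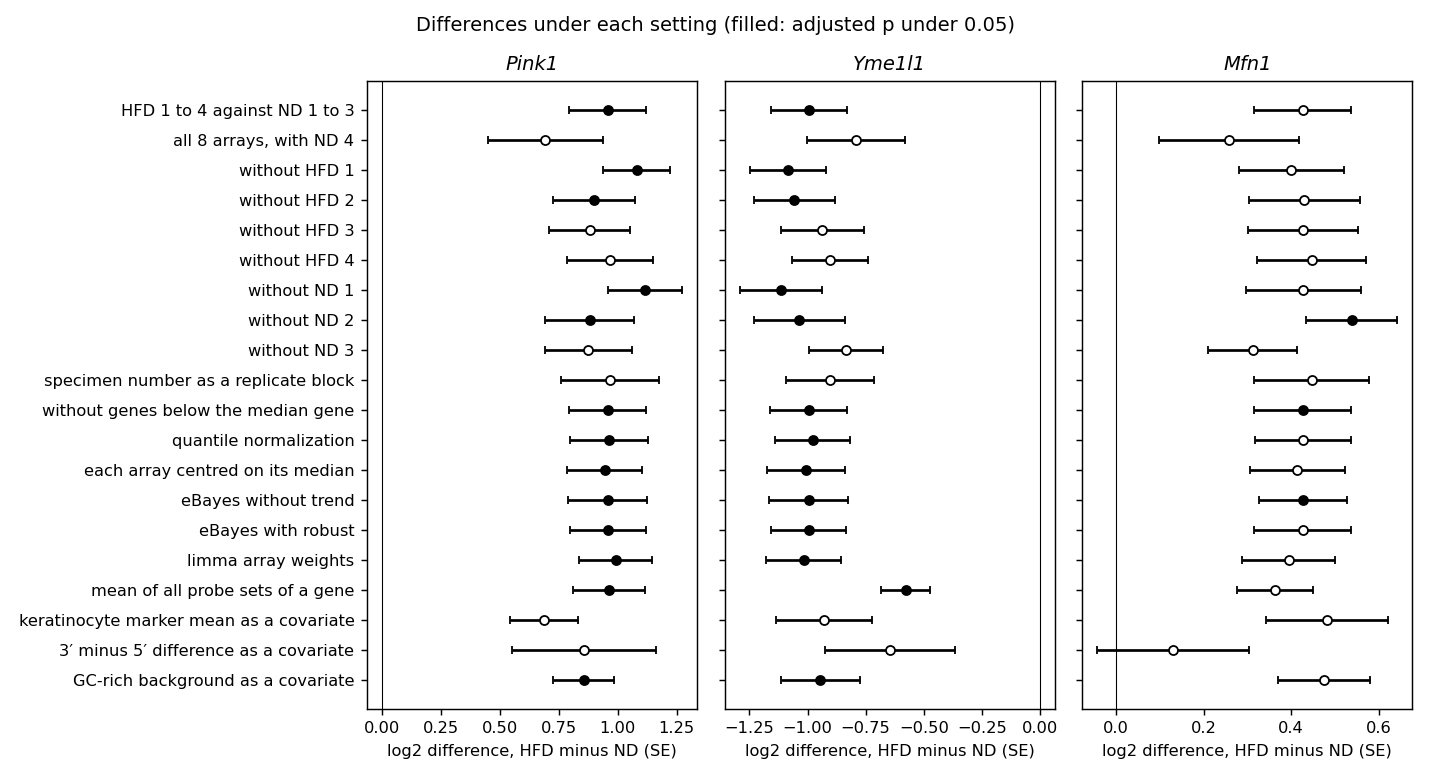
Log2 difference, HFD minus ND, of Pink1, Yme1l1 and Mfn1 with its SE in the comparison of HFD 1 to 4 with ND 1 to 3 (top row) and in 19 other settings (filled: adjusted p under 0.05). Pink1 stays between 0.69 and 1.12 and Yme1l1 between −1.12 and −0.58, and 12 of the 19 other settings are filled for each.

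The partners of these proteins were read from further lists of mitochondrial genes, 84 measured of 95 listed. Of the 84, 9 rose, 2 fell and 73 did not pass, or 13.1% past the threshold against 5.35% of all genes. The median difference was 0.06, against 0.02 over all genes, and 57 of 84, or 67.9%, were positive, against 56% of all genes. Of the 84, 18 lay below the median gene of 6.77. In a fit of genes at or above that level 13 of 66 listed genes passed, against 1387 of 8554 genes. The 2 shares lay much closer together there than over genes of every level. No test of the lists was made. They were chosen with earlier results of these data known, so these shares are no independent observation. No gene of the 84 passed with ND 4 included (limma, 0 genes, with 25 at an unadjusted p under 0.05), or without HFD 3, HFD 4 or ND 3 (27, 25 and 21 at that p), and 3 passed without HFD 2.

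Genes of the PINK1 pathway and of mitochondrial ubiquitin enzymes included 2 that rose among 12 measured. Vdac1, an outer membrane channel that is marked with ubiquitin in mitophagy, had 11.93, 11.97, 11.93 and 12.09 in HFD, against 11.57, 11.49 and 11.41 in ND. Its diets lay well apart, and it rose by 0.49 (SE 0.07, limma adjusted p = 0.02). Of its dimmer probe sets, one differed by 0.39 and passed (limma adjusted p over all probe sets = 0.0353), and the dimmest differed by 0.14 with overlap. Usp30, the enzyme that removes ubiquitin again, rose by 0.45 (SE 0.10, limma adjusted p = 0.0361), though it lay below the median gene of 6.77 and its other, dimmer probe set differed by 0.09. The import receptor gene Tomm20 differed by −0.36 (limma adjusted p = 0.0597), named after its value was seen.

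Among 12 mitophagy receptors and adaptors, 1 rose and 1 fell. Tbk1, the kinase that activates mitophagy adaptors, rose by 0.39 (SE 0.08, limma adjusted p = 0.0315) and also lay below the median gene. Its dimmer probe set differed by 0.24 and did not pass (limma adjusted p over all probe sets = 0.0644). Nipsnap2, which marks damaged mitochondria for mitophagy in human cells, had 11.54, 11.43, 11.23 and 11.26 in HFD, against 11.74, 11.66 and 12.02 in ND, and fell by 0.44 on the log2 scale (SE 0.10, limma adjusted p = 0.0408). As in Yme1l1, ND 3 was the highest array. Nipsnap2 had 1 probe set only. The receptor genes Bnip3 and Bnip3l, named after their values were seen, differed by 0.03 and 0.001.

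Of 13 other mitochondrial proteases, 1 rose, 1 fell and 12 differences were positive. Parl, the inner membrane protease that cuts PINK1 in healthy mitochondria, had 8.08, 8.34, 8.03 and 8.26 in HFD, against 7.5, 7.34 and 7.5 in ND. It rose by 0.73 (SE 0.10, limma adjusted p = 0.02), the largest difference among the 84 genes. Pitrm1, which degrades the targeting peptides cut from imported proteins, had 7.89, 7.45, 7.31 and 7.39 in HFD, against 7.99, 8.03 and 8.18 in ND. It fell by 0.56 on the log2 scale (SE 0.14, limma adjusted p = 0.0448). Parl and Pitrm1 had 1 probe set each, and that of Pitrm1 did not pass over all probe sets (limma adjusted p = 0.054). Oma1, the protease that shares OPA1 as a substrate with YME1L1, differed by 0.20 (limma adjusted p = 0.245), named after its value was seen.

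Fission and fusion genes apart from the members each held 1 gene that passed. Of 9 fission genes Fis1, an outer membrane adaptor, had 9.81, 9.77, 9.71 and 9.63 in HFD, against 9.35, 9.33 and 9.12 in ND. It rose by 0.46 (SE 0.09, limma adjusted p = 0.0278), and its other probe set differed by 0.48. Of 8 fusion genes Parl, counted in both lists, was the one that passed.

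Of 9 genes of cristae organisation, 2 rose and 8 differences were positive. Samm50, which inserts proteins into the outer membrane and anchors the cristae, had 9.77, 9.85, 9.58 and 9.55 in HFD, against 8.98, 9.16 and 8.84 in ND, and rose by 0.69 (SE 0.11, limma adjusted p = 0.0224). Its dimmer probe sets differed by 0.29 and 0.13 and did not pass (limma adjusted p over all probe sets = 0.151 and 0.37). Micos10, a core subunit of the complex at cristae junctions, rose by 0.40 (SE 0.09, limma adjusted p = 0.0416). Its dimmer probe sets differed by 0.35 and 0.15 and did not pass (limma adjusted p over all probe sets = 0.08 and 0.47). Immt, another core subunit of that complex, differed by −0.39 (limma adjusted p = 0.119), named after its value was seen.

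Among 5 scaffold genes Maip1, a partner of the protease that holds AFG3L2, rose by 0.43 (SE 0.09, limma adjusted p = 0.0315), but lay below the median gene, and its other, dimmer probe set differed by −0.03 with overlap between the diets. Phb, which forms the prohibitin ring with PHB2, differed by 0.11 (95% interval −0.11 to 0.33), named after its value was seen. Of 6 motility genes Mtx2, an outer membrane metaxin, rose by 0.42 (SE 0.10, limma adjusted p = 0.0462). Its only probe set did not pass over all probe sets (limma adjusted p = 0.0562). None of 13 regulators of biogenesis and mitochondrial DNA passed (limma, 0 genes, with 2 at an unadjusted p under 0.05). The closest were Nrf1, a transcription factor for respiratory genes, at 0.34 (limma adjusted p = 0.0558), and Tfb2m, a factor of mitochondrial transcription, at −0.32 (limma adjusted p = 0.146).

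**Figure D5:**
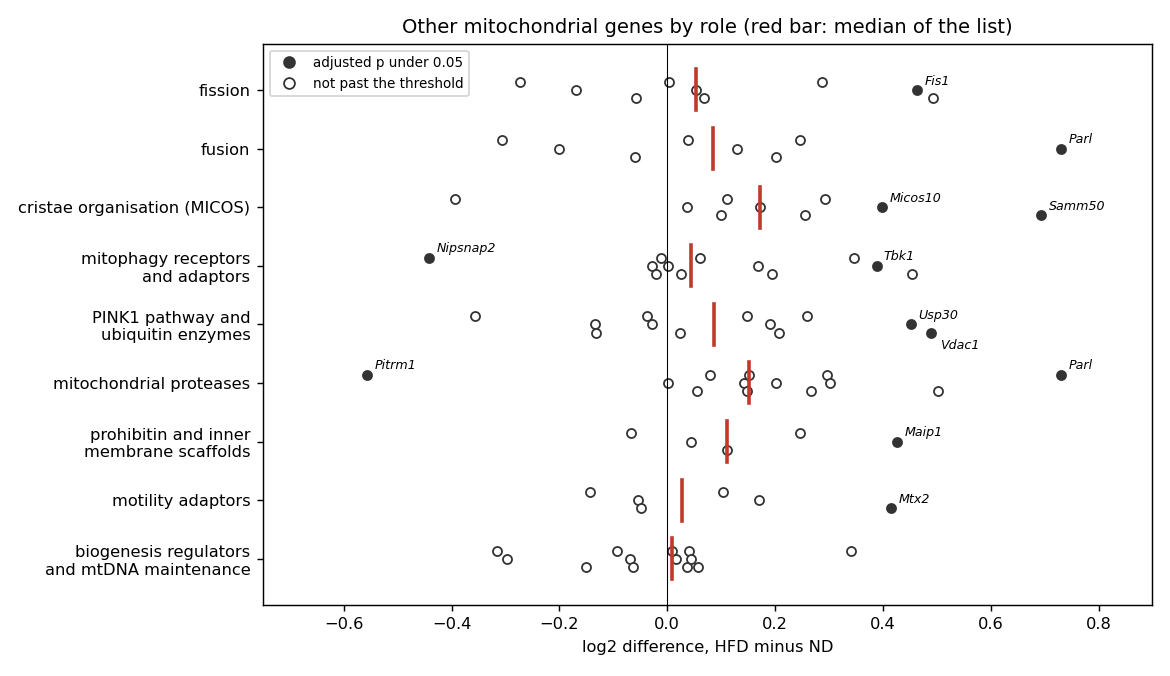
Log2 difference, HFD minus ND, of the other mitochondrial genes by role, each circle a gene (filled and named: adjusted p under 0.05; red bar: median of the list). Parl, in 2 lists, lies farthest right at 0.73 and Pitrm1 farthest left at −0.56, and list medians lie between 0.01 and 0.17.

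Across the 7 arrays compared, the genes with the pattern most like Pink1 by Pearson's r were the folate carrier gene Slc19a1 (r = 0.991), the calponin gene Cnn1 (r = 0.988) and the flotillin gene Flot1 (r = 0.987). None of these passed the threshold themselves, with differences of 0.21, 0.11 and 0.29. Most like Yme1l1 were the solute carrier gene Slc35a4 (r = 0.999), the pseudogene Tmem181b-ps (r = 0.997) and the noncoding RNA Tug1 (r = 0.997), with differences of −0.32, −0.57 and −0.52, and Tmem181b-ps and Tug1 passed (limma adjusted p = 0.0242 and 0.0248). The search covered all genes but those with RIKEN, predicted, LOC and similar provisional symbols. The 7 arrays fall into 2 diets and many genes were searched, so these values describe the arrays only.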

How the data were processed

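The authors deposited log2 values for 45141 probe sets on 8 arrays, made with RMA and the affy package per the submitters' processing notes. Versions, settings and the build of the array design are not given in the sources used here. Array quartiles agreed within 0.04, so a change in total RNA per cell would not be visible, and no detection calls were used. The number of arrays limits the precision.

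Names of probe sets came from GEO's platform annotation, with symbols updated by Entrez identifier through a GRCm38.p6 table. Each of 17097 genes was represented by its brightest probe set over the 7 arrays compared. HFD 1 to 4 were set against ND 1 to 3 in limma 3.58.1 (R 4.3.3; lmFit, eBayes with trend), with Benjamini-Hochberg adjustment over the whole gene table and a threshold of 0.05. The fit was tested on simulated data. Figures used matplotlib 3.10.9.

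The members and gene lists were chosen with earlier results of these data known. All 10 members are named, with every listed gene past the threshold or, failing that, 2 with the smallest p in the list, and the 3 genes most like each member that passed. Mitochondrial genes given outside this rule are marked as named after their values were seen. A gene removed from these lists is not reported here. The alternatives are given at the end. The GC-rich background covariate was added after seeing the data. Promoter windows came from the RefSeq table, which held 9 of the 10 members. The labels give no pairing by specimen number. Deviations of same-numbered arrays correlated at −0.18, −0.29 and −0.05, which cannot show whether samples were paired. No pair of arrays was a duplicate (smallest SD of a difference 0.165). The labels name no batch.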

Additional observations from a re-analysis of the deposited data

How the results depend on the processing

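The number of members past the threshold was 2, and 2 or 3 under array weights, quantile normalization, eBayes either robust or without trend, centring on the median, averaged probe sets, the brighter genes alone and the GC-rich background covariate. It was 0 with ND 4 included, with the specimen number as a replicate block, with the keratinocyte covariate and with the 3′ minus 5′ covariate (limma, with 5, 3, 4 and 2 of 10 at an unadjusted p under 0.05), 4 at an adjusted p under 0.1, and 0 to 3 when 1 array was left out. In those same 4 settings the members' probe sets past the threshold were 0, against 5 (7, 7, 7 and 3 of 24 at an unadjusted p under 0.05), and they were 0 to 5 when 1 array was left out, 0 without HFD 2 also. The 11 further mitochondrial genes were 0 in the same 4 settings (25, 23, 22 and 8 of 84 at an unadjusted p under 0.05), 4 with the mean of probe sets, 6 with the GC-rich background covariate, 17 at an adjusted p under 0.1, and 0 to 11 without 1 array. All genes past the threshold numbered 914, against 6 with ND 4, 1 with the block, 24 with the keratinocyte covariate, 0 with the 3′ minus 5′ covariate (604 at an unadjusted p under 0.05), 1387 of the 8554 brighter genes, 400 with the mean of probe sets, 329 with the GC-rich background, 1947 at 0.1, and 6 to 1072 without 1 array. Calls of members were lost without HFD 3, HFD 4 or ND 3, where all genes past the threshold numbered 6, 9 and 11. Pink1 and Yme1l1 each kept an unadjusted limma p under 0.05 in all 19 other settings. With 1 array left out it was at most 0.0012 for Pink1 and 0.0005 for Yme1l1. Why the calls were lost was not tested. The median of the members stayed between 0.02 and 0.13.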

Other observations

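ND 4, which the labels exclude, lay nearer the HFD mean than the ND mean in 6 of the 10 members and in 60.8% of all genes. Among the 11 further mitochondrial genes past the threshold it lay nearer the HFD mean in 9. For Vdac1 it had 11.93, equal to HFD 1 and HFD 3, and for Parl 7.93, between the diets. For Fis1 it had 9.61, close to HFD 4.

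In the promoter windows of the other members, the NRF1 motif TGCGCA was also found for Opa1 and Lonp1 and the ETS motif for Mfn1 and Phb2. The core of the cyclic AMP response element (TGACGT), in 6.47% of all windows, was found for Mfn2 and Lonp1, and the E-box (CACGTG), in 6.02%, for Lonp1, where it overlaps the NRF1 match.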
